A study of Mus musculus with 3 samples.

Results

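The genes described are the 10 that encode the NF-kappaB subunits and the I-kappaB proteins, chosen by symbol as Nfkb1, Nfkb2, Rel, Rela, Relb, Nfkbia, Nfkbib, Nfkbid, Nfkbie and Nfkbiz. All 10 had a value in each library, out of 12880 genes with a value in at least 1. RNA was sequenced from macrophages sorted from lungs of LysM-GFP mice, which carry a green fluorescent reporter in the lysozyme M locus that marks myeloid cells in general and not macrophages alone. The strain was C57BL/6 and the mice were 6 to 8 weeks old. There were 3 groups of 1 library each, 24 h, 4 h and 0 h, and every library had the same treatment label, nebulized lipopolysaccharide (LPS) at 1 mg/ml in saline, so whether the 0 h mice had inhaled LPS is not known. Cells were kept if they had GFP and CD64 and lacked the neutrophil antigen Ly6g. The headers of the deposited values also name each library by GFP and CD11b. How many mice stand behind a library, and their sex, is not given in the sources used here.

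NF-kappaB is a family of dimeric transcription factors built from p50, p52, RelA, RelB and c-Rel. In resting macrophages I-kappaB proteins hold the dimers in the cytoplasm. LPS acts through TLR4 to activate the IKK kinases, which mark I-kappaB alpha for destruction, and the freed dimers switch on inflammatory genes together with several of their own inhibitors, a feedback loop that ends the signal.

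Values are normalized read counts, the whole reads of a gene divided by a size factor that puts the 3 libraries on 1 scale. A ratio is the later library over the earlier, and a gene is counted as higher or lower when it differs by at least 2-fold. No time point had a replicate, so no difference has a replicate check and no p-value is given. Each interval is a 95% interval of Clopper and Pearson for the counting of reads only, so higher and lower refer to single libraries. Reads counted to genes numbered 24825976 in the 0 h library, 20379236 in the 4 h library and 25135476 in the 24 h library.

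Markers of several cell types differed between the 3 libraries. All 8 genes listed as general macrophage markers were read at every time. At 4 h against 0 h 3 of them were at least 2-fold higher and 1 lower, where 15.2% and 14.3% of all genes were. Fcgr1, which encodes the CD64 of the gate, stood at 2479, 7237 and 2887 at 0, 4 and 24 h. Itgam encodes the CD11b of the deposited headers and Ptprc encodes CD45, neither of them confined to macrophages. Both were higher at 4 h than at 0 h, by 4.62-fold and 3.07-fold. Mertk, a receptor for dying cells, went the other way, with 10552, 1673 and 3194 at 0, 4 and 24 h, and the ratio of Cd68 at 4 h was 0.619. The 11 alveolar macrophage markers summed to 733740, 277898 and 413745 at the same times. Of them 9 were at least 2-fold lower at 4 h than at 0 h. The 8 classical monocyte markers summed to 104589, 462695 and 88260. At 4 h 7 of these 8 were at least 2-fold higher than at 0 h, and at 24 h 7 were again higher than at 0 h while Fn1, the largest at 0 h, was lower. Of 12 neutrophil markers 9 had a value, with sums of 4892, 39207 and 7889, while Ly6g, the antigen of the gate, Mpo and Elane had none. Summed markers of T and NK cells (7.47, 81.2 and 63.3), B cells (38.3, 114 and 282) and dendritic cells (480, 2931 and 748) were below those of the macrophage and monocyte lists. At 0 h no value was given for 3 of 4 B cell, 2 of 4 measured T and NK cell and 1 of 9 measured neutrophil markers. Those 0 h sums rest on fewer genes than the later ones. Of 4 dendritic cell markers 2, Flt3 and Cd209a, were at least 2-fold higher at 4 h than at 0 h and 0 lower. Those of lung epithelium summed to 12733, 14732 and 14066, a near-level sum of members that differed: Scgb1a1 stood at 90.6, 3977 and 105, and Epcam at 953, 159 and 334. Those of endothelium summed to 3873, 1691 and 2333, of which Vwf alone made 3292, 564 and 1533, while Pecam1 and Cdh5 were 2.02-fold and 1.80-fold higher at 4 h than at 0 h. The part of these shifts in the values of the 10 genes was not tested, and in bulk RNA fewer cells of a type and less RNA per cell cannot be told apart. Xist was read 13705 times at 0 h, 4 times at 4 h and once at 24 h, and the Y-linked Ddx3y 4, 3994 and 2357 times, so against 0 h sex and time cannot be told apart.

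The 10 genes stood on the higher side at 4 h and on the lower side at 24 h. Between 4 h and 0 h, 9 of the 10 had a ratio above 1, where 50.1% of all genes did, and 3 were at least 2-fold higher, where 15.2% of all genes were. None was at least 2-fold lower there (14.3% of all genes), and 1 had a ratio below 1 (49.9%). Between 24 h and 0 h all 10 had a ratio below 1, against 50.2% of all genes, and 4 were at least 2-fold lower, against 9.1%. None was higher in that comparison, where 49.8% of all genes had a ratio above 1 and 4.95% were at least 2-fold higher. Between 24 h and 4 h all 10 again had a ratio below 1, against 49.9% of all genes, and 8 were at least 2-fold lower, against 17.9%, while 14.4% of all genes and none of the 10 were at least 2-fold higher. The 3 genes past 2-fold at 4 h lay close to the threshold, and none passed it when libraries were scaled by total reads. The 4 lower at 24 h than at 0 h became 8 when the libraries were centred on ribosomal protein genes. With that centring the number of all genes at least 2-fold lower rose too, from 1136 to 2957. The median log2 ratio of the 10 was 0.69, -0.87 and -1.66 in these 3 comparisons, beside medians of all genes of 0.0022, -0.0015 and 0.0016. The comparisons share libraries and are not separate evidence of one another.

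**Figure D1:**
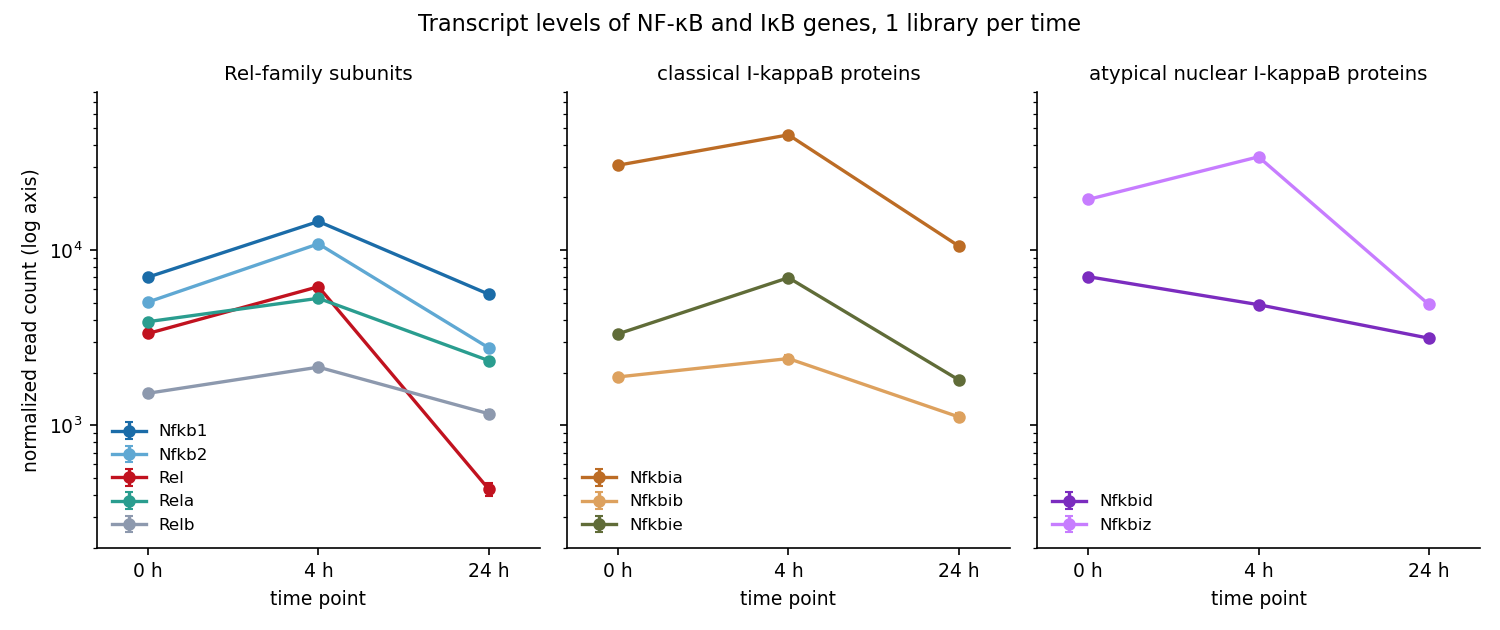
Normalized read counts (log axis) of the 10 genes at 0, 4 and 24 h, 1 library per time, with 95% counting intervals that are mostly smaller than the points. Rel had 433 at 24 h, the lowest value of all, and Nfkbid was the 1 gene whose count at 4 h (4887) lay below that at 0 h (7059).

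Among the 5 subunit genes Rel had the widest swing, and at 24 h Nfkb1 and Relb were the nearest to their 0 h levels, with ratios of 0.799 and 0.764. Both stayed below their 0 h levels beyond counting error, and centred on ribosomal proteins these ratios were 0.553 and 0.529. Rel encodes c-Rel, a subunit with a transactivation domain that is best known for the IL-12 and IL-23 genes of macrophages and dendritic cells (chromosome 11, 23741729 to 23770970, mm10, minus strand). It stood at 3349 at 0 h, 6192 at 4 h and 433 at 24 h. The 3 counting intervals did not overlap, and the 24 h library was far below the other two. Rel was 14.3-fold lower at 24 h than at 4 h (13.1 to 15.7) and 7.73-fold lower at 24 h than at 0 h (7.06 to 8.49). Only 69 of 12481 genes had a lower ratio at 24 h against 0 h, which is 0.553% of them. At 4 h Rel was 1.85-fold higher than at 0 h (1.77 to 1.93), short of the 2-fold threshold.

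Rela encodes p65, the main transactivating subunit of the canonical pathway (chromosome 19, 5637490 to 5648130, plus strand). It stood at 3910 at 0 h, 5316 at 4 h and 2344 at 24 h, a narrow range beside that of Rel. It was 1.36-fold higher at 4 h than at 0 h (1.30 to 1.42), 1.67-fold lower at 24 h than at 0 h (1.59 to 1.75) and 2.27-fold lower at 24 h than at 4 h (2.16 to 2.38). The reads of Rel over those of Rela, a ratio within each library that no scaling can move, were 0.856 at 0 h (0.819 to 0.896), 1.16 at 4 h (1.12 to 1.21) and 0.185 at 24 h (0.168 to 0.203). Rel was thus low at 24 h relative to Rela too. Such a ratio still joins transcripts of unlike length. At 24 h against 0 h the 500 genes nearest in length to Rel had a median log2 ratio of -0.55. The 500 nearest to Rela had 0.0072. The part of length in the ratio of Rel to Rela was not tested.

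Nfkb1 and Nfkb2 encode p105 and p100, precursors that are cut to p50 and p52 and that act as inhibitors while whole. Nfkb1 (chromosome 3, 135584655 to 135691547, minus strand) stood at 7025, 14587 and 5612 at 0, 4 and 24 h, and Nfkb2 (chromosome 19, 46305695 to 46312090, plus strand) at 5064, 10875 and 2773. Both passed 2-fold at 4 h against 0 h, Nfkb1 with a ratio of 2.08 (2.02 to 2.14) and Nfkb2 with 2.15 (2.08 to 2.22). They parted at 24 h: against 0 h the ratio of Nfkb1 was 0.799 (0.773 to 0.826) and that of Nfkb2 0.548 (0.524 to 0.572). The reads of Nfkb2 over those of Nfkb1 were 0.721 at 0 h, 0.745 at 4 h and 0.494 at 24 h. Psd, on the other strand, shares exon bases with Nfkb2 and had 873, 1511 and 579 reads at 0, 4 and 24 h, and without stated strand use in the counting its share in the reads of Nfkb2 was not tested.

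Relb, the partner of p52 in the non-canonical pathway (chromosome 7, 19606222 to 19629438, minus strand), moved least among the subunits at 24 h against 4 h. It stood at 1526 at 0 h, 2150 at 4 h and 1166 at 24 h. Its ratio was 1.41 at 4 h against 0 h (1.32 to 1.51), 0.764 at 24 h against 0 h (0.711 to 0.821) and 0.542 at 24 h against 4 h (0.505 to 0.582), and it passed 2-fold in none of the 3.

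Levels of different genes can be set side by side only per length, here per kilobase of the exon bases that lie within the span the tables give for the gene. On that scale c-Rel transcripts made up 19.2% of the summed Rel-family level at 0 h, 19.4% at 4 h and 4.40% at 24 h. Nfkb1 made up 25.3%, 28.7% and 35.8% at the same times, and Rela 21.4%, 15.9% and 22.7%. At 0 h the per-kilobase levels of Nfkb1 (1706), Nfkb2 (1612), Rela (1443) and Rel (1296) lay close together, and their order depends on the length used. The tables' span for Rel holds 2584 of the 7466 bases of its annotated transcript, and by the whole transcript its shares were 7.61%, 7.70% and 1.57%. The share was lowest at 24 h with either length. Over all 10 genes Nfkbia had the highest level per kilobase at each time (19378, 28862 and 6700), and Rel the lowest at 24 h (168). Nfkbiz was the next highest at 0 h (5379) and 4 h (9413), but at 24 h (1354) it stood below Nfkbid (1566). Nfkb1 (1363) was level with Nfkbiz at 24 h, but above it by whole transcript lengths (1363 against 1193). At 24 h Relb (529) and Nfkbib (526) did not differ beyond counting error.

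**Figure D2:**
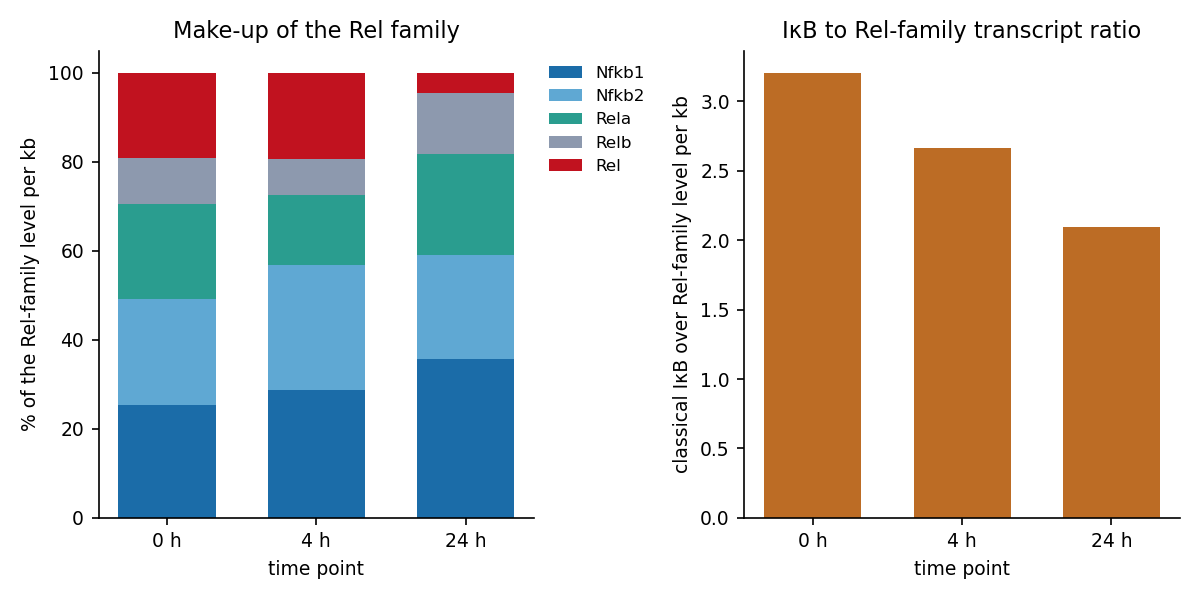
Left, share of each subunit in the summed Rel-family level per kilobase (%) at 0, 4 and 24 h; right, the summed level per kilobase of Nfkbia, Nfkbib and Nfkbie over that of the 5 subunits. The Rel share was 4.40% at 24 h, and the right-hand ratio was 3.21 at 0 h, 2.66 at 4 h and 2.09 at 24 h.

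Of the classical I-kappaB genes, which encode the cytoplasmic inhibitors, Nfkbia was the most abundant member of the whole set at every time. It encodes I-kappaB alpha, the fast inhibitor that IKK targets first and that NF-kappaB itself re-induces (chromosome 12, 55489409 to 55492647, minus strand). Nfkbia stood at 30579 at 0 h, 45545 at 4 h and 10572 at 24 h. The 24 h library was the lowest and the 4 h library the highest, with no overlap of counting intervals. It was 1.49-fold higher at 4 h than at 0 h (1.47 to 1.51), 2.89-fold lower at 24 h than at 0 h (2.83 to 2.95) and 4.31-fold lower at 24 h than at 4 h (4.22 to 4.40). Its reads over those of Rela were 7.82 at 0 h, 8.57 at 4 h and 4.51 at 24 h.

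Nfkbie, which encodes I-kappaB epsilon, an inhibitor induced with a delay (chromosome 17, 45555700 to 45563168, plus strand), stood at 3333, 6969 and 1819 at 0, 4 and 24 h. It was the 1 classical inhibitor past 2-fold at 4 h against 0 h, with a ratio of 2.09 (2.004 to 2.182), and it was 3.83-fold lower at 24 h than at 4 h (3.65 to 4.03). Nfkbib encodes I-kappaB beta, the steadier inhibitor (chromosome 7, 28758251 to 28766644, minus strand), and stood at 1891, 2407 and 1118. Its ratio was 1.27 at 4 h against 0 h (1.19 to 1.36), the smallest rise among the 9 genes with a ratio above 1. The reads of Nfkbie over those of Nfkbib were 1.76 at 0 h, 2.90 at 4 h and 1.63 at 24 h.

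Summed per kilobase, transcripts of the 3 classical inhibitors stood at 21637, 32857 and 7973 at 0, 4 and 24 h, and those of the 5 subunits at 6750, 12340 and 3808. The inhibitor sum over the subunit sum was therefore 3.21 at 0 h, 2.66 at 4 h and 2.09 at 24 h, or 3.67, 3.06 and 2.16 with whole transcript lengths. Nfkbia made up 89.6%, 87.8% and 84.0% of the inhibitor sum at these times. These are transcript levels, and protein was not measured.

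The pair of atypical I-kappaB genes, whose products work in the nucleus, moved apart at 4 h. Nfkbiz encodes I-kappaB zeta, which mouse macrophages need for a second wave of genes such as Il6 and Lcn2 (chromosome 16, 55811377 to 55822138, minus strand). It stood at 19498 at 0 h, 34122 at 4 h and 4909 at 24 h. It was 1.75-fold higher at 4 h than at 0 h (1.72 to 1.78), 3.97-fold lower at 24 h than at 0 h (3.86 to 4.09) and 6.95-fold lower at 24 h than at 4 h (6.76 to 7.15). Nfkbid encodes I-kappaB NS, a nuclear regulator of Il6 and other secondary response genes in mouse macrophages (chromosome 7, 30423304 to 30428746, plus strand). It stood at 7059 at 0 h, 4887 at 4 h and 3147 at 24 h, the only member with its highest count at 0 h. Its ratio was 0.692 at 4 h against 0 h (0.666 to 0.720) and 0.446 at 24 h against 0 h (0.429 to 0.464). The reads of Nfkbiz over those of Nfkbid were 2.76 at 0 h, 6.98 at 4 h and 1.56 at 24 h.

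Bcl3, another nuclear I-kappaB protein, binds p50 and p52 and is not among the 10. Its gene stood at 909 at 0 h, 5672 at 4 h and 859 at 24 h. It was 6.24-fold higher at 4 h than at 0 h (5.82 to 6.70), and its ratio at 24 h against 0 h was 0.945, with an interval of 0.865 to 1.03 that spans equal levels. That ratio was 1.06 when scaled by total reads and 0.654 when centred on ribosomal proteins.

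**Figure D3:**
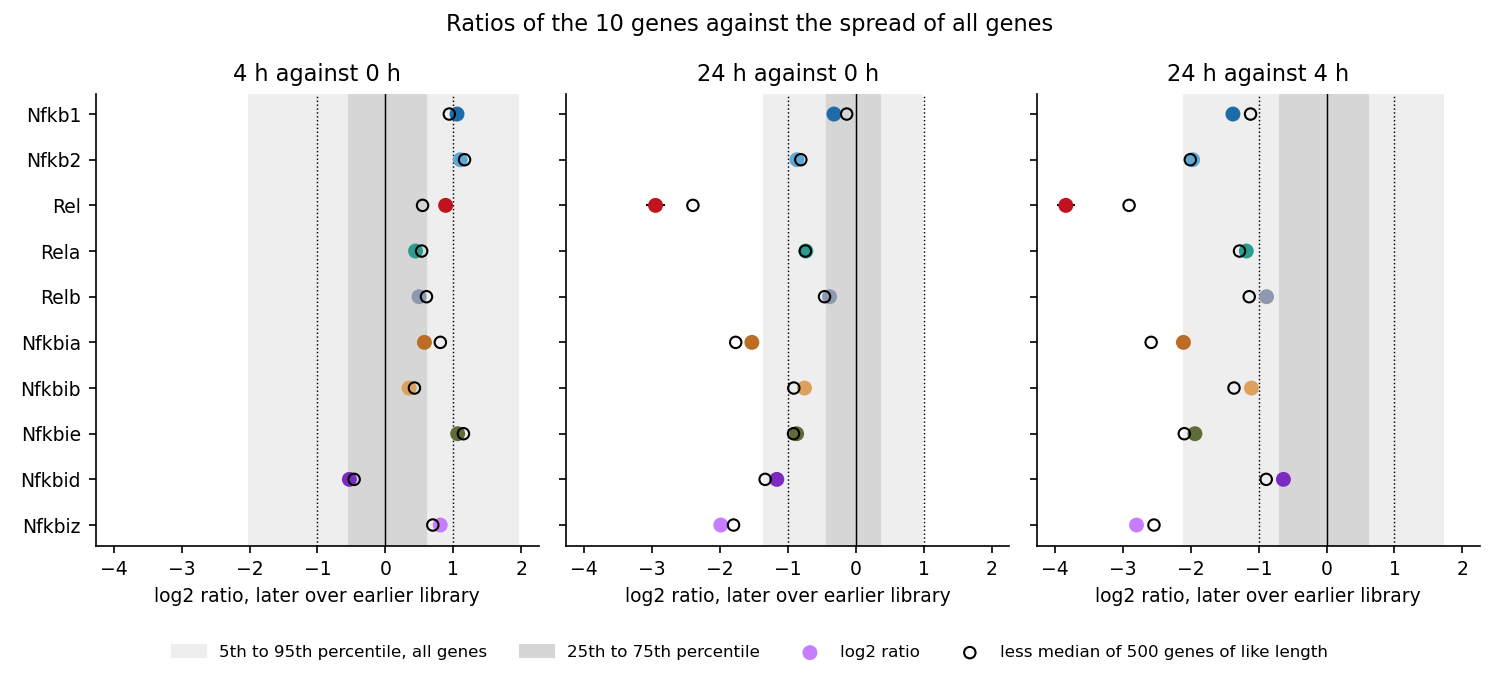
Log2 ratio of each of the 10 genes (filled points, with 95% counting intervals) in the 3 comparisons, over the spread of all genes (grey bands); dotted lines mark 2-fold, and open circles are the log2 ratio less the median of 500 genes of like transcript length. Rel lay at -2.95 at 24 h against 0 h and at -3.84 at 24 h against 4 h, outside the bands in both.

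The authors' deposited tables give fold changes nearer to 0 than the plain ratios for all 10 genes. In the authors' deposited table for 4 h against 0 h the log2 fold changes of the 10 genes ran from -0.45 (Nfkbid) to 0.86 (Nfkb2), and none reached 1 in size, where 8.86% of the table's genes were at least 1 and 9.02% at most -1. For 24 h against 0 h the authors' deposited table has 3 of the 10 at or below -1, namely Rel (-1.56), Nfkbiz (-1.24) and Nfkbia (-1.03), where 2.14% of its genes are, and none at or above 1, where 0.539% are. For 24 h against 4 h the authors' deposited table has 6 of the 10 at or below -1, against 10.2% of its genes, and none at or above 1, against 7.26%, with Rel at -2.36 and Nfkbiz at -1.89.

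The promoters of several members hold the sequence that NF-kappaB itself binds, known as the kappaB site, and the letters are shown for 4 that have it and, for contrast, for Rela, which does not. RefSeq windows of 300 bases on GRCm38.p6 (the same genome as mm10), from 250 bases before a start to 50 after it, were on hand for 7 of the 10 genes, with 11 windows in all. They were searched on both strands for the kappaB consensus of 10 bases. It was found in at least 1 window for 5 genes, Nfkb2, Rel, Nfkbia, Nfkbie and Nfkbid, and not for Rela and Nfkbib. Of all 32851 windows 4.51% held it, and of the 9182 measured genes with a window 6.45% held it in at least 1. The 250 bases before the start follow for 5 of the genes, 5' to 3' on the gene's strand, with the consensus in capitals. They lie at chr12:55492648-55492897 (Nfkbia, minus strand), chr11:23770970-23771219 (Rel, minus strand), chr19:46304487-46304736 (Nfkb2, first of 3 starts, plus strand), chr17:45555450-45555699 (Nfkbie, plus strand) and chr19:5637291-5637540 (Rela, plus strand).
Nfkbia: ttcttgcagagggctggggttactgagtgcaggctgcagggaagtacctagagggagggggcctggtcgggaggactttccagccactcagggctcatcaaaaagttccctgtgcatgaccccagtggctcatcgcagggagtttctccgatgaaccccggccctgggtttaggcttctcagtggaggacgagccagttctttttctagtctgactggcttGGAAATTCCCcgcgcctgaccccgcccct
Rel: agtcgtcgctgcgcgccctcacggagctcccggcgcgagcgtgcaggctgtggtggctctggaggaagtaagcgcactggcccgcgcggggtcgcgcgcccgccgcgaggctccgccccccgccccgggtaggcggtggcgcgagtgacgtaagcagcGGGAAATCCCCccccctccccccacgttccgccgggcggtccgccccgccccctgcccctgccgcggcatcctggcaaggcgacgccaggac
Nfkb2: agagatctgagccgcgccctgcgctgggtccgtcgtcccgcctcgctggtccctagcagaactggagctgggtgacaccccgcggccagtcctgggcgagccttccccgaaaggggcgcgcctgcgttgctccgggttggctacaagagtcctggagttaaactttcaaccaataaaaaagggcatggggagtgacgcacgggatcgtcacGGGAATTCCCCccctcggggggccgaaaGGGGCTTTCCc
Nfkbie: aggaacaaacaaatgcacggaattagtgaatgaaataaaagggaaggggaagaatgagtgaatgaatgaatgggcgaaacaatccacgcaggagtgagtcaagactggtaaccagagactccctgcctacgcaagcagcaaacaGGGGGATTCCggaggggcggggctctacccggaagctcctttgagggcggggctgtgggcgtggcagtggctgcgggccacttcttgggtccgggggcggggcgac
Rela: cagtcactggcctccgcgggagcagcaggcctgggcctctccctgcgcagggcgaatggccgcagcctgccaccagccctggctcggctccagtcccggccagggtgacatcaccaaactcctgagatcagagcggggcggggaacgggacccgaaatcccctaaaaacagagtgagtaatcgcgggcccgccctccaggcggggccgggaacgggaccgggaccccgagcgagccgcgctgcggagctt
The match of Nfkbia lies at positions -29 to -20 before the start and reads GGAAATTCCC. In Rel overlapping matches on both strands cover positions -92 to -82. The window shown for Nfkb2 has overlapping matches at -39 to -29 and another at -11 to -2. The span given for Nfkb2 begins instead at the second of its starts. The window of that start has matches at -236 to -227 and at 11 to 20. The 2 matches of Nfkbid, in the second of its 3 windows, read GGGACTTCCC at -226 to -217 and GGAATTCCCC at -181 to -172. The span given for Nfkbid begins instead within the third of its windows, which holds no match. Among the 5 genes that hold the letters the ratios at 4 h differed: Nfkbie and Nfkb2 were higher at 4 h than at 0 h by 2.09-fold and 2.15-fold, and Rel and Nfkbia by 1.85-fold and 1.49-fold, while Nfkbid was lower, with a ratio of 0.692. A match is a description of the letters in these windows, and binding was not measured.

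The IKK list of kinases with their adaptors and the ubiquitin ligase list, which act on I-kappaB, had median log2 ratios at 24 h against 0 h of 0.08 and 0.37, beside -0.87 for the 10 genes. Of 10 genes of the IKK complex and its activating kinases, 2 were at least 2-fold higher at 4 h than at 0 h and none lower. They were Ikbke, an inducible IKK-related kinase of the interferon pathway, at 3.82-fold (3.54 to 4.12), and Tab2, an adaptor of the TAK1 kinase, at 2.17-fold (2.08 to 2.26). None of these 10 genes passed 2-fold in either direction at 24 h against 0 h, and 1, Ikbke, was lower at 24 h than at 4 h, by 4.64-fold (4.30 to 5.01). The catalytic subunit gene Ikbkb stood at 5590, 9468 and 6088 at 0, 4 and 24 h. The 8 genes listed for the SCF beta-TrCP ligase, which tags phosphorylated I-kappaB, include its Ube2d conjugating enzymes. Of the 8, 1 was higher at 4 h, the conjugating enzyme gene Ube2d3 at 2.11-fold (2.03 to 2.20). None passed 2-fold at 24 h against 0 h or against 4 h. These directions rest on the scaling: centred on ribosomal proteins, the medians at 24 h against 0 h were -0.45 for the IKK list and -0.16 for the ligase list. With that centring 7 of the 10 and 3 of the 8 genes were lower at 24 h than at 4 h. So were 4071 of all genes, in place of 2268. By total reads 1 gene of the IKK list, Ikbke, and 0 of the ligase list were at least 2-fold higher at 4 h than at 0 h, and 1 ligase gene was higher at 24 h than at 4 h. By the size factors used for the main counts, 15.2% of all genes were higher at 4 h than at 0 h and 14.3% lower. The counts of higher genes in both lists at 4 h lay near that share. At 24 h 4.95% of all genes were higher and 9.1% lower than at 0 h, and 14.4% and 17.9% than at 4 h.

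Of 8 genes of the non-canonical pathway, in which the kinase NIK (Map3k14) drives the cutting of p100, 3 were higher at 4 h than at 0 h and none lower. Cd40, a receptor that triggers the pathway, was 9.27-fold higher (8.32 to 10.3), and Birc3, a ligase that removes NIK, 4.02-fold higher (3.85 to 4.19). The other was Birc2, also a ligase that acts on NIK, at 2.03-fold with an interval of 1.85 to 2.22 that spans the threshold, and the count was 2 by total reads and 2 by TMM. None of the 8 passed 2-fold at 24 h against 0 h, and 3 were lower at 24 h than at 4 h, with Cd40 8.27-fold and Birc3 4.65-fold lower. Among all genes 15.2% were higher and 14.3% lower at 4 h than at 0 h, and 17.9% were lower at 24 h than at 4 h. At 24 h against 0 h 4.95% of all genes were higher and 9.1% lower. Centred on ribosomal proteins, 2 of the 8 fell past 2-fold at 24 h against 0 h and 6 against 4 h. With that centring 2957 and 4071 of all genes were lower in these comparisons, in place of 1136 and 2268. Map3k14 itself stood at 2459, 2422 and 1579 at 0, 4 and 24 h. Map3k14, Birc3 and Cd40 each stand in 2 of these lists.

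Of 18 listed genes that NF-kappaB is known to switch on in macrophages, 16 had a ratio above 1 at 4 h against 0 h. By total reads 14 did, and by the main size factors 50.1% of all genes did. All 18 were lower at 24 h than at 4 h by at least 2-fold, where 17.9% of all genes were. Past 2-fold, 8 were higher and 1 lower at 4 h against 0 h, where 15.2% and 14.3% of all genes were. At 24 h against 0 h 0 were higher and 11 lower (9 by total reads, 14 when centred on ribosomal proteins). Of all genes 4.95% were higher and 9.1% lower there by the main size factors. Ribosomal centring made 2957 of all genes lower in place of 1136. Ptgs2, the inducible cyclooxygenase, stood at 3000 at 0 h, 32744 at 4 h and 1994 at 24 h. Tnf was the 1 lower at 4 h, with 30054, 10411 and 3270 at 0, 4 and 24 h. Cxcl1, a chemokine for neutrophils, was 7.09-fold lower at 24 h than at 0 h (6.71 to 7.50), and Ccl4, a chemokine for monocytes and T cells, 16.9-fold lower at 24 h than at 4 h (15.6 to 18.4).

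Of 7 late genes known to depend on c-Rel or I-kappaB zeta, 5 were higher and 1 lower at 4 h against 0 h, 1 was higher and 5 lower at 24 h against 0 h, and 7 were lower at 24 h against 4 h. Il6 stood at 6243, 20021 and 1450 at 0, 4 and 24 h. Il23a, which encodes the p19 subunit of interleukin-23, stood at 1232, 542 and 5.75, the last from 7 reads. Csf3, the growth factor of granulocytes, stood at 54.2, 539 and 4.11, the last from 5 reads. Lcn2 was the 1 higher at 24 h than at 0 h, by 6.20-fold (5.27 to 7.33), and it is also listed here as a neutrophil marker. Il12a had 2 reads at 0 h and 1 at 24 h, too few for a fold. It is counted among the 5 higher at 4 h and among the 5 lower at 24 h against 0 h. Csf2, also among those 5 lower, had 24 reads at 0 h and 4 at 24 h.

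**Figure D4:**
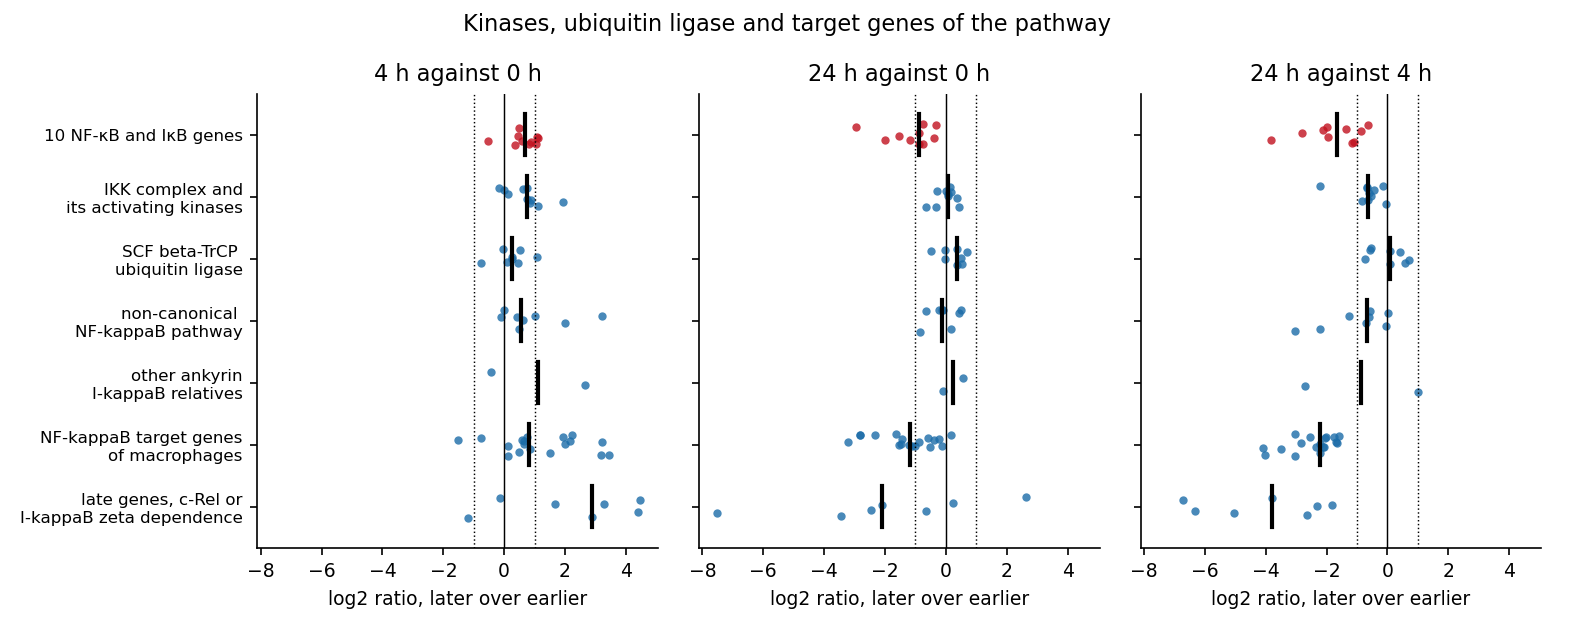
Log2 ratio of each gene (points) and median (black bars) for the 10 genes and for 6 lists of the pathway in the 3 comparisons; dotted lines mark 2-fold. All points of the target list lie below the line of 2-fold lower at 24 h against 4 h, while those of the ubiquitin ligase list lie within the dotted lines there.

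The genes whose course over the 3 libraries was most like that of a member were ranked by the Euclidean distance of centred log2 values among 6404 others with a mean of at least 500. Nearest to Rel were Cbl, a ubiquitin ligase (distance 0.165), Il1a, a cytokine (0.248), and Nlrp3, the inflammasome sensor (0.346). Nearest to Nfkbia were Srrm2 (0.0270), Huwe1 (0.0628) and Zc3h12a, an RNase that cuts cytokine transcripts (0.0728). Nearest to Nfkbiz were Ddi2 (0.0456), Vps13c (0.0699) and Dst (0.0858), and nearest to Rela were Mtmr3 (0.0161), Nlrc4 (0.0228) and Rprd2 (0.0262). Nfkbib was the 27th nearest to Rela (0.0712), and the nearest member to Nfkbiz was Nfkbia (0.497). With 3 points per gene these distances are descriptions only. They were taken without regard to transcript length, and the part of length in them was not tested.

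Transcript length moved with the comparisons across all genes. The median log2 ratio at 24 h against 4 h was 0.69 for 656 genes with transcripts under 1000 bases and -1.19 for 582 genes with transcripts of 8000 bases or more. The same length classes had medians of 0.44 and -0.68 at 24 h against 0 h, and of -0.23 and 0.50 at 4 h against 0 h. Rel has the longest transcript of the members (7466 bases) and Nfkbia the shortest (1578 bases). The span given for Rel holds 2584 of its 7466 bases, and matching Rel at that shorter length was not run. Set against the median of the 500 genes nearest in length, the log2 ratio of Rel at 24 h against 0 h was -2.40 in place of -2.95, and that of Nfkbia -1.77 in place of -1.53. On that basis, chosen after the data were seen, 2 of the 10 were higher at 4 h against 0 h, 4 lower at 24 h against 0 h and 9 lower at 24 h against 4 h. No share of all genes is given on that basis, and the shares printed above belong to unadjusted ratios. The part of length in the values of the 10 genes was not tested further.

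**Figure D5:**
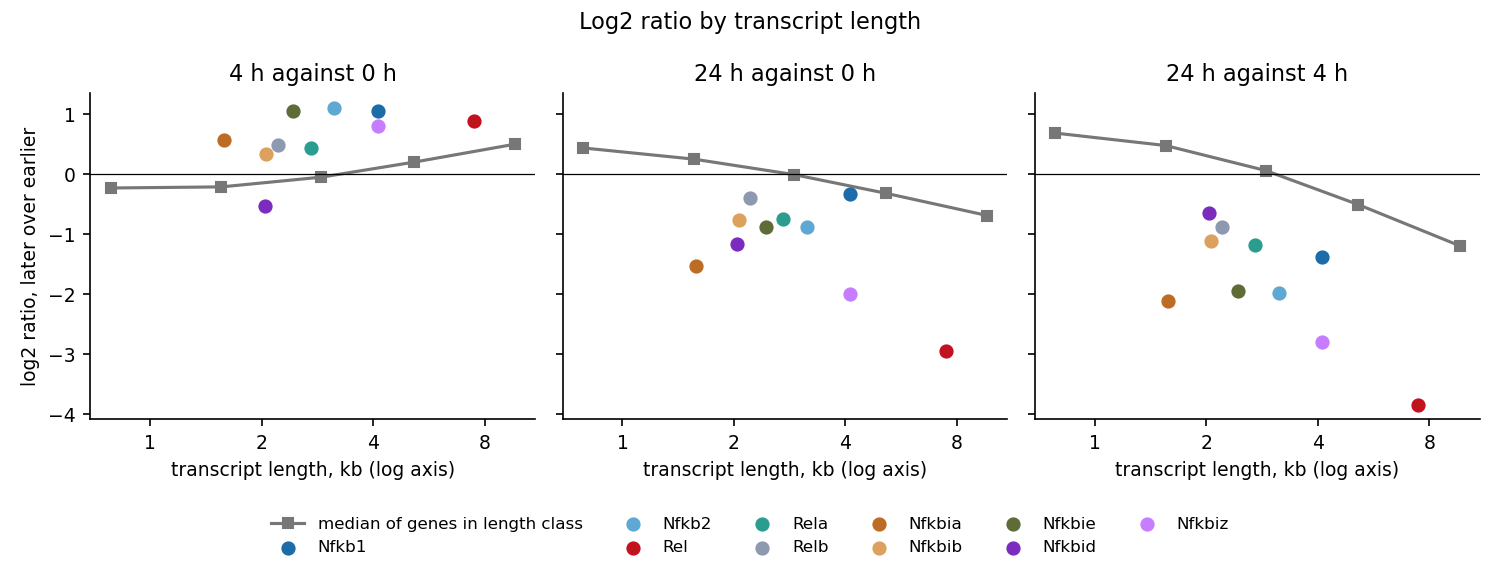
Log2 ratio of the 10 genes (coloured points) and median log2 ratio of all genes in 5 classes of transcript length (grey squares), against transcript length in kilobases (log axis), for the 3 comparisons. The grey line falls with length in both comparisons of 24 h, and all 10 genes lie below it there. Rel is placed at its whole annotated transcript of 7466 bases.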

How the data were processed

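The data were 3 tables of the authors, each setting 2 of the 3 RNA-seq libraries side by side, with 1 library per time point. DESeq2 and the mm10 genome are named, per the submitters' processing notes. No aligner, read counter or gene annotation is given in the sources used here. The deposited signal values are read counts divided by a size factor fitted to each pair of libraries. Within 0.001 reads, 100% of the values came out as whole reads, which were used from there. The authors' deposited log2 fold changes are the later library over the earlier, and were nearer to 0 than plain ratios. Rows have a mean above 10.

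In the table of 24 h against 0 h the column of the earlier library is headed 4 h. For 12310 of 12310 genes in common it held the read number of the 0 h library, and this 1 column was given to no sample. That table's 20 repeated rows were dropped.

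Size factors were medians of ratios over the 3 libraries, with values of 1.07, 0.788 and 1.22 at 0, 4 and 24 h. Log2 ratios of many genes used a pseudocount of 1. No count test was run, since 1 library per time leaves no residual degrees of freedom. Deposited starts were counted from 0 and are given from 1. Lengths came from GENCODE M21 transcripts matched to RefSeq, by symbol or synonym, for 95.4% of genes at 24 h against 0 h.

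Members and lists were chosen with earlier results of these data known. Named genes are the 10 members, Bcl3, the genes of each further list furthest past 2-fold with a mean of at least 100, and the 3 genes most like Rel, Rela, Nfkbia and Nfkbiz. Ikbkb, Map3k14, Birc2, Il12a, Csf2, Nfkbil1, Psd, the cell type markers and the sex-linked genes were named after their values were seen. Alternatives were total reads, TMM (edgeR 4.0.16 in R 4.3.3), ribosomal protein centring, the deposited fold changes, a minimum mean of 100, a pseudocount of 10, and the counting interval as the call, and, chosen after seeing the data, genes of like transcript length. Protein sequences were not used here. The steps were run on simulated counts with known folds and counting error only, which does not test the calls in these libraries. Python 3.11.15 and SciPy 1.17.1 were used.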

Additional observations from a re-analysis of the deposited data

How the results depend on the processing

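All 150 recomputed ratios of the 10 genes (3 scalings, the deposited fold changes and a pseudocount of 10) kept their direction. Of 6 counts of members past 2-fold, the 3 higher at 4 h against 0 h lay close to the threshold, and the count was 0 when libraries were scaled by total reads and 0 by the authors' deposited fold changes, which for every member are nearer to 0. The 4 lower at 24 h against 0 h became 8 when centred on ribosomal proteins, while the number among all genes rose from 1136 to 2957. The other counts stayed within 1.5 times of those reported under the alternatives run, 6 to 10 in place of 8 for those lower at 24 h against 4 h. The 10 came with ribosomal centring, where 4071 of all genes were lower in place of 2268. The median log2 ratio of all genes became -0.15 (4 h over 0 h), 0.16 (24 h over 0 h) and 0.32 (24 h over 4 h) with total reads, and -0.53 in both comparisons of 24 h with ribosomal centring. The share of higher genes among those past 2-fold at 24 h against 0 h was 35.2%, but 50.3% by total reads, 7.07% by ribosomal centring and 20.1% by the deposited fold changes. At 24 h against 4 h it was 44.6%, but 64.9% by total reads and 17.0% by ribosomal centring. No paired analysis was possible because each time point has 1 library, and none could be left out in turn. Depth limits Il23a, Csf3, Csf2 and Il12a at 24 h, with 7, 5, 4 and 1 reads.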

Other observations

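Ratios of reads within a library, which no scaling moves, set the other subunits beside Rela. The reads of Nfkb1 over those of Rela were 1.80 at 0 h (1.73 to 1.87), 2.74 at 4 h (2.65 to 2.84) and 2.39 at 24 h (2.29 to 2.50). Those of Relb over Rela were 0.390, 0.404 and 0.497 at the same times, so both stood higher relative to Rela at 24 h than at 0 h, the opposite side from Rel. Nfkbil1, a distant ankyrin relative of the I-kappaB genes, stood at 413 at 0 h, 308 at 4 h and 615 at 24 h.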
